A study of Mus musculus with 18 samples.

Results

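Processed pseudogenes are copies of messenger RNAs that were reverse transcribed and inserted back into the genome, and 910 of them were measurable in the femoral condyle cartilage of mice after rupture of the anterior cruciate ligament (ACL). They were taken as every gene typed as a processed pseudogene in the mouse GENCODE M21 annotation that had at least 10 estimated counts in at least 3 libraries. A pair of genes of this type was left out of the list before counting. Of 49184 genes with a listed transcript, 9919 were of this type, and 4471 of those were at 0 in every library. The 910 members were 9.17% of the listed pseudogenes.

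All mice were wild-type C57bl6, and the study's methods describe them as 12-week-old males. Injured libraries came from right knees whose ACL was ruptured by a single mechanical load under isoflurane, with buprenorphine given as pain relief, contralateral libraries from the unloaded left knees of injured mice, and naive libraries from mice that received no load. The 18 libraries were 6 naive, 3 day 1 contralateral, 3 day 1 injured, 3 day 7 contralateral and 3 day 7 injured, with the day counted from injury. All groups were labelled as cartilage with the cell type chondrocyte, each library pooled caps from several mice, and naive libraries carried the day 7 label. The labels do not tie a left knee library to a right knee library or name the mice in a pool. The study's methods say that the left and right knees of naive mice also went into separate pools, so naive libraries can share mice with one another, as injured libraries do with contralateral ones. All libraries were treated here as independent, so n counts libraries and not sets of mice, and p-values measure the spread between these libraries, which may be technical in part.

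Each library held between 16074800 and 41794000 estimated counts. All 10 chondrocyte markers were measured, with Col2a1, the collagen of cartilage matrix, the most abundant of them. Markers of blood, bone, muscle and synovium were also measured, and their values stand beside the day 7 results. Day 7 contralateral replicate 1 stood apart from the rest: its 10 most abundant genes took 42.5% of its counts, against 16.6% to 29.8% in the other 17 libraries, and the counts and medians of comparisons that use it are also given without it, as are the calls named here that change.

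A processed pseudogene has no introns and often ends in a remnant of the tail of its source mRNA. It lands away from its source gene, here called the parent, and so usually has no promoter of its own. The enzyme that makes such copies is the reverse transcriptase encoded by the second reading frame (ORF2) of LINE-1 elements, which are mobile repeats of the genome. Most processed pseudogenes cannot encode the parent protein, and reads from a young copy can be shared with its parent because the sequences are still alike.

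The members showed this structure. Of the 910, 847 had a single exon, the median length was 709.5 bases, and they lay on 21 chromosomes. A coding parent was found for 765 members outside a LINE-1-like set, and these came from 460 distinct parents. Gapdh, a glycolytic enzyme, was the parent of 32 members. Rpl7a, a protein of the large ribosomal subunit, was the parent of 19, Hmgb1, a chromatin protein, of 17, and Rps2 and Rps6, of the small ribosomal subunit, of 16 and 13. Median identity to the parent was 92.3% (interquartile range 83.5% to 98.7%), and 81 members matched the parent at 100% over the aligned stretch. The aligned stretch covered at least 95% of the parent's coding sequence for 444 members.

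Sequence decides how a value is to be read, since the authors' program assigned reads by matching 31-base words. Members were therefore put into 4 classes by the share of their 31-base words found in no transcript of another gene, and the classes used no expression value. Near-identical copies (198 members) had under 10% of their words to themselves, with a median identity to the parent of 99.9%. Intermediate copies (161) had from 10% to under 50%. Diverged copies (489) had at least 50%, with a median identity of 85.4%. The LINE-1-like set (62) was made of 35 members whose translation held the catalytic motif of the LINE-1 reverse transcriptase and of others at least 80% identical to such a member over at least 50% of their length.

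These sequences show what separates the classes. Rps23-ps1 at chr3:37714740-37714859 (GRCm38, plus strand) is a near-identical copy of Rps23, a protein of the small ribosomal subunit, and its first 120 bases held 0 mismatches to the parent's coding sequence. Gm7334 at chr17:50698688-50698807 (plus strand) held 0 mismatches to the first 120 coding bases of Btg3, a protein that restrains cell proliferation. No read from these stretches can be told apart by sequence alone. All sequences are 5′ to 3′ on the transcribed strand.
Rps23-ps1: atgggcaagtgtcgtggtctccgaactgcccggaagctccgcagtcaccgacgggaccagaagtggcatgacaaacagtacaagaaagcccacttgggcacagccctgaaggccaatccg
Rps23: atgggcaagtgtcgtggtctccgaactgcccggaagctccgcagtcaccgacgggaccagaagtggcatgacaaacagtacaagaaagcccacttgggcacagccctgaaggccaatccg
Gm7334: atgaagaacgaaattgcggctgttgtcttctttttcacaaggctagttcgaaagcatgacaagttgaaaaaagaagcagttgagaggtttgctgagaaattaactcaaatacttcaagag
Btg3: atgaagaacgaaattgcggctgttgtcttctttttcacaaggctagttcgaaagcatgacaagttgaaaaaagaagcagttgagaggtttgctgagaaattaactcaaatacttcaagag

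Diverged members that rose or fell are shown next, with capitals at each base that differs between the member and its parent. Rpl26-ps6 at chr9:43217122-43217241 (plus strand) had 12 mismatches in 120 bases to Rpl26, a protein of the large ribosomal subunit. Gm8307 at chr1:45768624-45768743 (plus strand) had 14 in 120 to Usp10, an enzyme that removes ubiquitin. Gm5345 at chr8:40854827-40854946 (minus strand) had 6 in 120 to Gapdh. Gm47726 at chr10:123178526-123178615 (minus strand) had 19 in 90 to Polr1d, a subunit shared by RNA polymerases I and III.
Rpl26-ps6: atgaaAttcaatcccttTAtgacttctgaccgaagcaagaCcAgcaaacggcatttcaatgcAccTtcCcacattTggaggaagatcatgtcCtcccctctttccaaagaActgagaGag
Rpl26: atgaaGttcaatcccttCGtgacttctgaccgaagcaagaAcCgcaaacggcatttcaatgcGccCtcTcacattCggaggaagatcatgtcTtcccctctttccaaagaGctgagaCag
Gm8307: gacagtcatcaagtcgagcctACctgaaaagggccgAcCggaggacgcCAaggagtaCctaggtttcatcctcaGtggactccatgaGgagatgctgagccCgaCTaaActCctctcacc
Usp10: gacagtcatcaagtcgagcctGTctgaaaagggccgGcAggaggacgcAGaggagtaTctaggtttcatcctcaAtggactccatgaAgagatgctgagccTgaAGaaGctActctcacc
Gm5345: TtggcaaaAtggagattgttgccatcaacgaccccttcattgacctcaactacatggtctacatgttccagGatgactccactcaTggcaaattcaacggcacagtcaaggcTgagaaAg
Gapdh: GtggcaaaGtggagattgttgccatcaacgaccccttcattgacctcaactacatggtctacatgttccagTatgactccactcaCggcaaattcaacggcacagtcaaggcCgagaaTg
Gm47726: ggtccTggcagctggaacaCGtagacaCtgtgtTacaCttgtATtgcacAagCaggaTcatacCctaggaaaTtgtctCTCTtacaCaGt
Polr1d: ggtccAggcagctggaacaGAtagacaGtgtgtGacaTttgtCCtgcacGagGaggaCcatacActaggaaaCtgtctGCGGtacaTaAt

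For the LINE-1-like set, 102 bases of its most abundant member, Gm42927, are shown at chr3:120737384-120737485 (minus strand). The capitals mark the 18 bases that encode the catalytic motif.
Gm42927: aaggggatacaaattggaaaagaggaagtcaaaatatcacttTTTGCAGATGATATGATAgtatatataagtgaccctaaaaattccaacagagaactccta

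Sequences and coordinates are those of GENCODE M21 on GRCm38.

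The 910 members together took under 0.5% of the counts of each library. In naive cartilage their share of matched counts was 0.386% ± 0.016 (SD, n = 6), from 0.368% to 0.414%. The day 1 contralateral libraries held 0.472%, 0.467% and 0.402%, and the day 1 injured libraries 0.413%, 0.417% and 0.403%. The day 7 contralateral libraries held 0.299%, 0.401% and 0.382%, the lowest being replicate 1. The day 7 injured libraries held 0.323%, 0.339% and 0.280%, all below the 6 naive libraries. As a share of transcripts scaled to a fixed sum, they held 0.360%, 0.482% and 0.430%, overlapping the naive 0.438% to 0.575%. The highest share on that scale was 0.762%, in day 1 contralateral replicate 1. Summed CPM, counts scaled to a fixed library size after TMM normalisation, which trims genes of extreme level or ratio, did not separate these groups: 3858, 4091 and 3288 at day 7 in injured knees against 3337 to 4164 in naive.

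A few members carried most of this signal. The 10 most abundant held 36.6% of the members' summed CPM and the 50 most abundant 73.2%, while 668 members had a mean under 1 CPM and the median mean was 0.475 CPM. By class, near-identical copies held 67.5% of the sum, the LINE-1-like set 17.5%, diverged copies 10.1% and intermediate copies 4.93%. The 6 most abundant were all near-identical copies: Rps23-ps1, Gm4739 (of Hmgb2, a chromatin protein), Tpt1-ps3 (of Tpt1, a growth-related protein bound to the translation machinery), Rps6-ps4, Rpl28-ps1 and Gm7536 (of Rpl27a). Their mean naive levels ran from 135.9 ± 27.7 CPM for Rpl28-ps1 to 181.2 ± 18.2 CPM for Rps23-ps1 (SD, n = 6).

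Per length, several of these copies were assigned more signal than their parents. Rps23-ps1 had a mean of 401 TPM (transcripts scaled to a fixed sum per library, a level per length) over the 18 libraries against 62.6 TPM for Rps23, and Gm7536 had 272 TPM against 37.9 TPM for Rpl27a. Ndufb4c, a copy of a subunit of mitochondrial complex I, had 40.1 TPM against 6.44 TPM for Ndufb4. Tpt1-ps3 went the other way, with 263 TPM against 536 TPM for Tpt1. Of 99 members that had a parent and no 31-base word of their own, 27 had a mean TPM above that of the parent. For diverged copies, which share a smaller part of their words with other genes, this was so for 38 of 421. Values of the first kind are the program's division of shared reads between copy and parent and do not show which of them was transcribed.

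Injured cartilage at day 7 was compared with naive cartilage to ask which copies changed after injury. Most tested members were lower: the median log2 fold change was −0.47, with 638 of 836 below 0, against a median of −0.04 over all 21129 genes tested. With the 1.5-fold and FDR 0.05 limits in edgeR's quasi-likelihood test, 99 members fell (11.8%), against 6.11% of all genes tested, and 20 rose (2.39%), against 10.4% of all genes. The 74 members outside the test were too low for the filter. The groups did not overlap for 74 of the 99 members that fell, against 954 of 1291 among all genes that fell, and for 13 of the 20 that rose, against 2069 of 2207 among all genes that rose. Without day 7 injured replicate 1 there were 70 lower (7.98%, against 4.7% of all genes) and 17 higher (1.94%, against 10.6%). Without replicate 2 there were 63 (7.12%, against 4.07%) and 15 (1.69%, against 9.75%). Without replicate 3 there were 52 (5.88%, against 3.67%) and 13 (1.47%, against 8.45%). The calls lay on 19 chromosomes for the members that fell and 13 for those that rose. Directions are on the TMM scale: scaling by total counts moved the median of all genes to −0.35 and gave 258 members lower (30.9%, against 21.6% of all genes) and 7 higher (0.837%, against 1268 of the 21129 genes), an alternative chosen after seeing the data.

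Counts are given next by sequence class, against 6.11% of all genes tested that fell and 10.4% that rose. Of 441 diverged copies tested, 64 fell (14.5%) and 5 rose (1.13%, median log2 fold change −0.61). Of 145 intermediate copies, 10 fell (6.90%) and 2 rose (1.38%, median −0.44). In the LINE-1-like set 18 of 61 fell (29.5%) and 0 rose (median −0.49). Of near-identical copies, 7 of 189 fell (3.70%) and 13 rose (6.88%, median 0.09), both shares below those of all genes. The difference between classes was not tested.

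**Figure D1:**
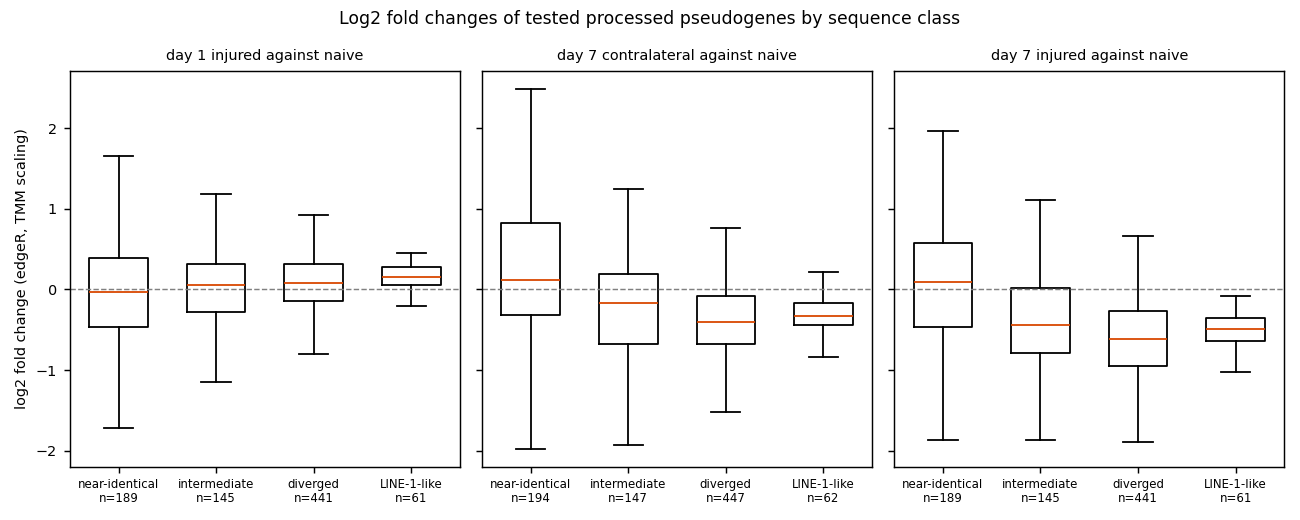
Log2 fold change of tested members by sequence class for day 1 injured, day 7 contralateral and day 7 injured against naive cartilage. Boxes show the median and interquartile range, whiskers reach 1.5 interquartile ranges and points beyond them are not drawn. In day 7 injured cartilage the medians are −0.61 for diverged copies, −0.49 for the LINE-1-like set and 0.09 for near-identical copies.

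The LINE-1-like set gave the most uniform picture. Its summed level in naive libraries was 577 at the lowest, 702 at the median and 815 CPM at the highest. At day 7 it was 520, 501 and 494 CPM in injured knees. On this TMM scale it was there below every naive and every day 7 contralateral library (592, 563 and 557 CPM). At day 1 it was 793, 781 and 808 CPM in injured knees and 762, 813 and 597 CPM in contralateral knees, all within the naive range. Of its 61 tested members, 60 had a log2 fold change below 0 at day 7 against naive.

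These members are long, with a median of 3771 bases, and 4 of them lay in an intron of a gene on the same strand. For 50 the best coding match was a transcript of Vmn2r79, a vomeronasal receptor gene, at a median identity of 90.2%, and all 50 matches lay outside its coding sequence, so Vmn2r79 was not taken as a parent. They also resemble one another, so their estimates are not independent: the median member had 28.9% of its 31-base words to itself.

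Gm42927 (chr3:120735721-120739561, minus strand) was the most abundant of them. It had 68.8 CPM in the lowest, 97.3 in the median and 108 in the highest naive library, and 66.8, 56.7 and 50.9 CPM in injured knees at day 7. All 3 injured values lay under the lowest naive value, and the log2 fold change was −0.68 ± 0.15 (SE; edgeR adjusted p = 0.00344). It had only 0.813% of its 31-base words to itself. Gm49273 (chr15:103657839-103661681) had the lowest adjusted p of all members. It had 23.4 CPM in the lowest, 29.1 in the median and 31.3 in the highest naive library, and 16.5, 15.1 and 15.3 CPM in injured knees at day 7. Its log2 fold change was −0.82 ± 0.13 (edgeR adjusted p = 1.75e-04). Gm47102 (chr9:105087075-105090181) had 16.8 CPM in the lowest, 21.9 in the median and 28.3 in the highest naive library. At day 7 it had 11.03, 12.2 and 14.3 CPM in injured knees, with no overlap (log2 fold change −0.83 ± 0.14, edgeR adjusted p = 4.92e-04). The 18 called members fell by 0.59 to 1.14 on the log2 scale. The last named and Gm49273 were picked after their values were seen.

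**Figure D2:**
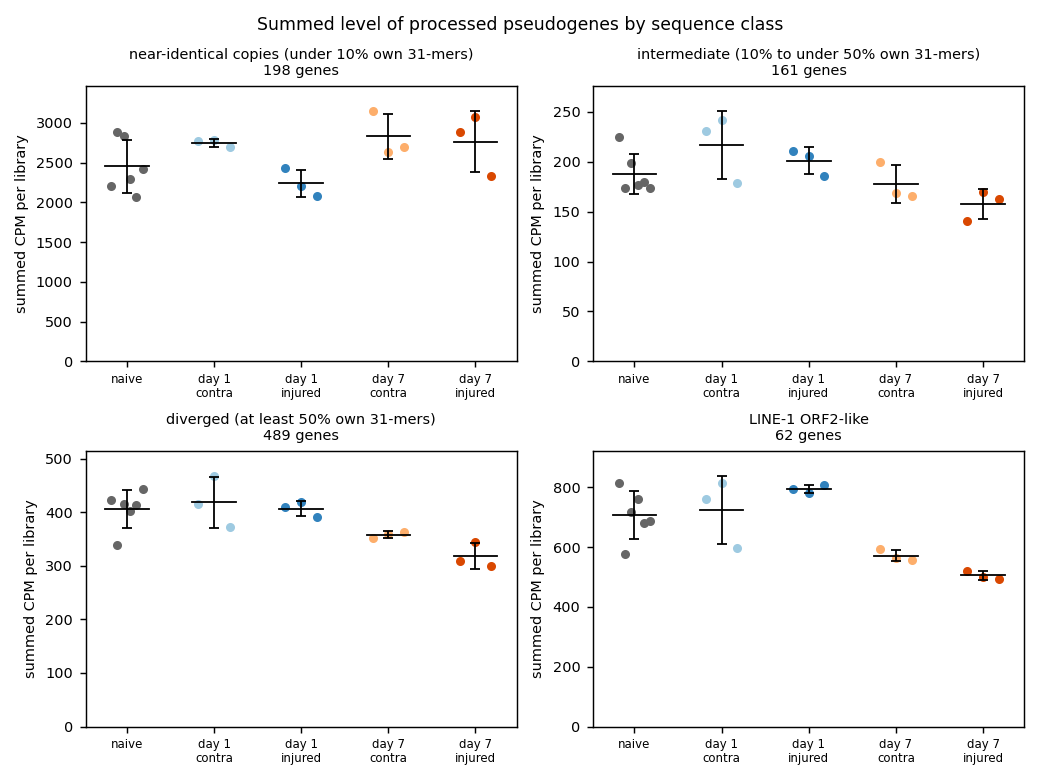
Summed CPM after TMM scaling (linear axis) of the members of each sequence class, 1 point per library in the 5 groups, long bars at the mean and error bars of SD. On this scale the 3 day 7 injured libraries of the LINE-1-like set sit at 494 to 520 CPM, under all naive and day 7 contralateral libraries. The place of day 7 contralateral replicate 1 depends on the scaling. Near-identical copies overlap.

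Diverged copies share a smaller part of their words with other genes than near-identical and intermediate copies do, and 5 of them rose. Reads from stretches that they do share cannot be placed by sequence alone. Gm8307, the Usp10 copy, had at most 0.279 CPM in naive libraries (median 0.0504, 2 libraries at 0) and 0.817, 0.824 and 0.833 CPM in injured knees at day 7. Its day 7 contralateral libraries held 0.0779, 0.134 and 0 CPM, so the injured libraries were above every other library. The log2 fold change was 3.27 ± 0.82 against naive (SE; edgeR adjusted p = 0.00737) and 3.60 ± 1.11 against the contralateral knee (adjusted p = 0.0309). Usp10 itself was at 38.0 ± 2.28 CPM in naive and 38.4 ± 2.94 CPM in injured cartilage.

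Rpl26-ps6 had 0.199 CPM in the lowest, 0.311 in the median and 0.445 in the highest naive library, against 0.863, 1.08 and 0.648 CPM in injured knees at day 7. All 3 injured values were above every library of the other groups, with a log2 fold change of 1.44 ± 0.33 against naive (edgeR adjusted p = 0.00417). Rpl26 differed by 0.04 ± 0.10 on the log2 scale (adjusted p = 0.790). AA414768 (chrX:12936872-12938128) had 1.39, 1.59 and 2.83 CPM in the lowest, median and highest naive library. It reached 3.63, 3.04 and 4.02 CPM in injured knees at day 7, with no overlap (log2 fold change 1.00 ± 0.29, edgeR adjusted p = 0.0165). Day 1 injured replicate 2 came close with 2.99 CPM.

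Gm5345, a Gapdh copy, had 0.392 CPM in the lowest, 0.550 in the median and 0.622 in the highest naive library, and 0.817, 0.887 and 1.39 CPM in injured knees at day 7. Its log2 fold change was 0.97 ± 0.28 (edgeR adjusted p = 0.0179) while Gapdh itself was at −0.51 ± 0.20 (adjusted p = 0.0664). Gm14834 (chrX:107174610-107175494), a copy of the mitochondrial scaffold protein gene Phb, was the fifth. Its injured libraries at day 7 held 0.318, 0.634 and 0.879 CPM against 0.133 to 0.478 CPM in naive, so the groups overlapped (log2 fold change 1.23 ± 0.40, edgeR adjusted p = 0.0317). In all 5, the level stayed at or below 4.02 CPM. The calls of AA414768 and Gm5345 were lost under total-count scaling and without day 7 injured replicate 3. In TPM the day 7 injured libraries of Gm5345 held 0.346, 0.444 and 0.777, overlapping naive ones (0.229 to 0.412).

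Among the diverged copies that fell, several lay in introns of genes on the same strand. Gm47726 (chr10:123178324-123178684) is the Polr1d copy, inside an intron of Usp15, another enzyme that removes ubiquitin. It had 0.820, 0.875 and 1.03 CPM in the lowest, median and highest naive library, and 0.409, 0.317 and 0 CPM in injured knees at day 7. The 3 injured values were under all other 15 libraries (log2 fold change −1.89 ± 0.45, edgeR adjusted p = 0.00538). Usp15 was at −0.27 ± 0.08 (adjusted p = 0.0144). Gm15549 (chr8:68798867-68799488), a copy of the ribosomal protein gene Rpl10 in Ints10, a subunit of the Integrator complex, had 0.199 to 0.543 CPM in naive and 0.0454, 0.0634 and 0.0925 CPM in injured cartilage at day 7. Its groups did not overlap (log2 fold change −2.31 ± 0.54, edgeR adjusted p = 0.0050), and Ints10 was at −0.08 ± 0.08.

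Several members that fell rested on very few counts in the injured libraries. Gm9194 (chr12:13790264-13791710), with no parent found, had 3 counts in the 3 injured libraries together and 66 in the 6 naive ones, a ratio of 8.95 (95% Poisson-based interval 2.93 to 44.5, covering counting error only). Tmc4-ps (chr4:52443915-52444172) had 3 against 47, a ratio of 6.38 (2.05 to 32.0), and its parent Tmc4, a channel-like membrane protein, also fell (log2 fold change −0.63, adjusted p = 0.0237). Gm36378 (chr5:150243863-150244250), an Rpl31 copy in an intron of Fry, had 3 against 50, a ratio of 6.78 (2.19 to 34.0). Gm15049 (chrX:142775885-142776347) had 0.239 to 0.518 CPM in naive and 0.0908, 0 and 0.139 CPM in injured cartilage, and its parent Pou5f1, a pluripotency transcription factor, fell too (log2 fold change −1.60). Gm12274 (chr11:61973966-61974350), a copy of the transcriptional coactivator gene Edf1, had 0.296 to 0.637 CPM in naive and 0.182, 0.253 and 0 CPM in injured cartilage. Fth-ps2 (chr6:39653450-39653965), the only ferritin heavy chain copy, was at −0.80 ± 0.27 (adjusted p = 0.0348) in an intron of Braf, while Fth1 was at 0.12 ± 0.11. The call of Tmc4-ps was lost with limma-voom and without any 1 of the 3 injured libraries, that of Gm36378 without day 7 injured replicate 1 or 3, that of Gm12274 without replicate 3, and that of Fth-ps2 with both limma-voom and DESeq2.

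**Figure D3:**
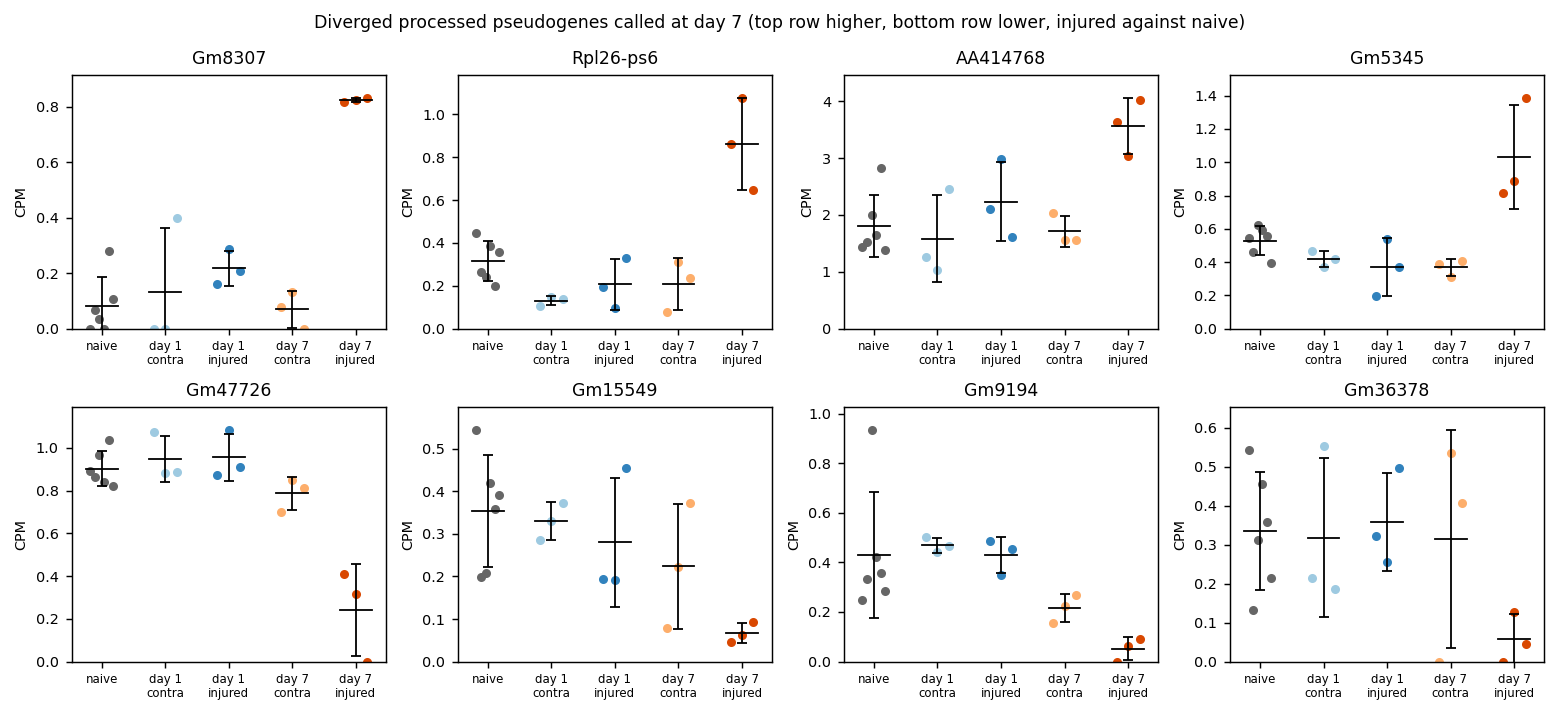
CPM after TMM scaling (linear axes) of named diverged copies, 1 point per library in the 5 groups, bars at the mean with SD, cut off at 0. The 3 day 7 injured points of Gm8307 lie at 0.817 to 0.833 CPM above all others, and those of Gm47726 lie at or below 0.409 CPM, under all others.

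Among near-identical copies that rose, a pair shown here had both values of 0 and values well above 0 in naive libraries. Gm12918 (chr4:10848420-10849055), identical to Rpl13 over the aligned stretch, was at 0 in 5 naive libraries and at 7.39 CPM in naive replicate 3, against 45.5, 45.8 and 26.2 CPM in injured knees at day 7. The contralateral libraries of that day held 38.0, 9.63 and 25.9 CPM. Its log2 fold change against naive was 4.88 ± 1.36 (edgeR adjusted p = 0.0145) and against the contralateral knee 0.68 ± 1.42, or 1.16 without contralateral replicate 1. Rps13-ps2 (chr7:88530446-88530898) had 7.45, 27.6 and 13.7 CPM in injured knees at day 7 and 0 in 12 of the other libraries, but 22.2 CPM in day 7 contralateral replicate 1. Rpl13 and Rps13 were at −0.23 ± 0.12 and −0.02 ± 0.10 on the log2 scale against naive. Their copies' values depend on how shared reads were divided. DESeq2's Wald test called neither copy against naive. Against the contralateral knee Rps13-ps2 was not called, but without contralateral replicate 1, the other contralateral libraries being at 0, it was. Gm2316, on chromosome Y, also rose, from 1 count in the 6 naive libraries to 21 in the 3 injured ones (ratio 51.6, 95% Poisson-based interval 8.30 to 2134), mostly in replicate 1 (0.817, 0.127 and 0.0462 CPM). Day 1 contralateral replicate 1 held 0.501 CPM, and the call was lost with limma-voom and without day 7 injured replicate 1 or naive replicate 3, 4 or 6.

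Gm7334, the near-identical Btg3 copy, moved with its parent at day 7 against naive on the TMM scale. The program divided the reads they share, so their values are not independent. The copy had 7.28 CPM in the lowest, 9.002 in the median and 10.3 in the highest naive library. At day 7 it had 12.6, 13.9 and 16.9 CPM in injured knees, with no overlap. In TPM these libraries held 7.67, 10.03 and 13.9 of the copy, overlapping the naive 6.28 to 9.83. Mean TPM of Btg3 was 5.42 in injured knees at day 7 and higher, 6.51, in those of day 1. The log2 fold change was 0.71 ± 0.13 (edgeR adjusted p = 7.16e-04) for the copy and 0.67 ± 0.15 (adjusted p = 0.00301) for Btg3. Tpt1-ps3 (log2 fold change 0.35 ± 0.10, adjusted p = 0.0176) and Ube2n-ps1, a copy of a ubiquitin-conjugating enzyme gene (0.50 ± 0.14, adjusted p = 0.0128), were below the 1.5-fold limit. Gm10359 and Gm12671, both copies of Gapdh, are identical in sequence and had equal estimates in every library, so they count as 1 measurement.

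**Figure D4:**
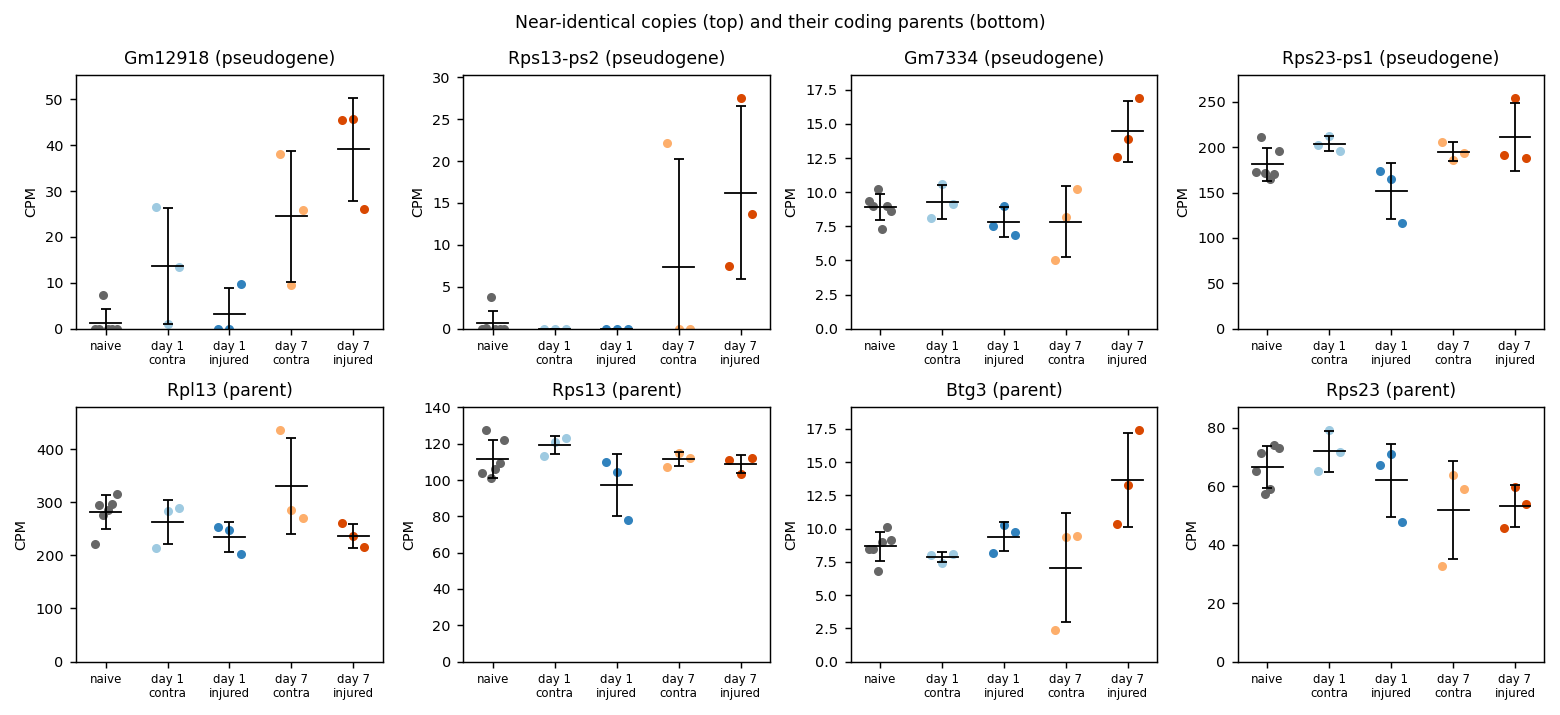
CPM after TMM scaling (linear axes) of 4 near-identical copies in the top row and their coding parents in the bottom row, 1 point per library in the 5 groups, bars at the mean with SD, cut off at 0. On this scale Gm7334 and Btg3 are both highest in day 7 injured cartilage. Gm12918 and Rps13-ps2 lie between 0 and 45.8 CPM, and their parents Rpl13 and Rps13 are above 0 in every library.

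Copies at 0 throughout a group allow only a bound, which covers counting and not the division of shared reads. Gm47893 (chr13:116096035-116096300) was at 0 in all 6 naive libraries and had 91 counts in the 3 injured libraries at day 7, which puts it at least 74.5-fold higher when 3 counts over the naive group are taken as the floor. It also had 3.65 CPM in day 1 injured replicate 3. In TPM that library held 30.5, above the 7.49, 7.91 and 1.45 of injured knees at day 7. Gm47893 has no 31-base word of its own, so its values, 0 among them, depend on how shared reads were divided. Gm6565, a copy of the ubiquitin-conjugating enzyme variant gene Ube2v2, was at 0 in all 3 injured libraries, at least 44.4-fold lower than naive by the same floor over the injured group. It was also at 0 in naive replicate 3 and in 2 of 3 day 7 contralateral libraries. Gm48494 was at least 20.5-fold lower, and was at 0 in all 3 day 7 contralateral libraries as well. Gm45647, with 3 counts against 86 (ratio 11.7, interval 3.86 to 57.7), has no word of its own either. Gm47893 did not pass when injured replicate 1 or 2 of day 7 was left out, nor Gm45647 when replicate 1 was.

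Among the intermediate copies that fell, Gm16139 (chr16:16542323-16542742), a copy of Rps27a, a ubiquitin and ribosomal protein fusion gene, had 0.321 to 0.988 CPM in naive and 0.136, 0.190 and 0.0462 CPM in injured cartilage at day 7 (log2 fold change −2.16 ± 0.64, edgeR adjusted p = 0.0194). Gm45665 (chr8:91152207-91152374), with no parent found, had 0.280 to 0.864 CPM in naive and 0.136, 0 and 0.231 CPM in injured cartilage (−2.01 ± 0.59, edgeR adjusted p = 0.0185). The groups did not overlap for either, but the call of Gm16139 was lost without injured replicate 1 or 3 and that of Gm45665 without replicate 1 or 2.

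Grouped by what the parent does, no family of at least 15 tested members was mostly called. Copies of cytosolic ribosomal protein genes were the largest family: 11 of 164 fell (6.71%, against 6.11% of all genes tested) and 4 rose (2.44%, against 10.4%), with a median log2 fold change of −0.52. Of copies of glycolytic enzyme genes, 3 of 36 fell (8.33%) and 1, Gm5345, rose (median −0.54). Among copies of chromatin protein genes 3 of 32 fell (9.38%), of RNA-binding protein genes 3 of 19 (15.8%), of ubiquitin and proteasome genes 4 of 19 (21.1%), of cytoskeleton genes 2 of 15 (13.3%), of translation factor genes 1 of 17 (5.88%) and of folding factor genes 1 of 15 (6.67%), and 0 rose in these 6 families. Of 17 copies of oxidative phosphorylation genes edgeR called 0, with a median of −0.59 and 4 at an unadjusted p under 0.05, where 28.5% of members and 41.1% of all genes were. Members without a parent had 14 of 79 fallen (17.7%) and 1 risen. The most abundant copies of several families were not called: Gm10052, identical to Hnrnpa1, an RNA-binding protein gene, was at 0.28 ± 0.21 on the log2 scale (adjusted p = 0.351), and Gm10123, identical to the folding enzyme gene Ppia, at 0.28 ± 0.12 (adjusted p = 0.0921). Gm13323, a diverged copy of the actin gene Actg1, was at −0.54 ± 0.20 (adjusted p = 0.0551), and Gm47924, with no parent found, at −0.57 ± 0.15 (adjusted p = 0.0118), under the 1.5-fold limit.

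The parents did not follow. Of 448 tested parents of members outside the LINE-1-like set, 14 rose (3.12%, against 10.4% of all genes) and 7 fell (1.56%, against 6.11%), with a median of 0.06. For the 64 members that fell and had a tested parent, 2 parents fell and 2 rose, and for 18 that rose, 2 parents rose. None of the 57 ribosomal protein parents was called in either direction. Genes whose introns held a member on the same strand were similar: 11 of 171 rose (6.43%) and 5 fell (2.92%, median 0.04), while of the 182 tested members in such introns 26 fell (14.3%, against 6.11% of all genes) and 2 rose, with a median of −0.58. Of 292 members on the opposite strand of a gene only, 40 fell (13.7%) and 1 rose (0.342%, median −0.62), and of 353 outside other genes 32 fell (9.07%) and 16 rose (4.53%, median −0.27). Whether the reads were counted by strand is not stated, so a member inside a gene cannot be told from unspliced RNA of that gene.

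The fall was not particular to processed pseudogenes. By the same test, long intergenic RNAs had 209 of 1400 fallen and 20 risen (median −0.50), and antisense genes 207 of 1328 fallen and 22 risen (median −0.49). Protein-coding genes had 611 of 16086 fallen and 2113 risen (median 0.05). Transcripts annotated as retained introns took 2.62% to 3.77% of counts in naive libraries and 2.11%, 2.05% and 2.14% in injured knees at day 7, with no overlap. In the day 7 contralateral libraries they took 2.49%, 2.94% and 2.86%. Their part in the fall of the members was not tested.

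Cell type markers also moved at day 7. Summed erythroid markers (9 of 10 found, Hbb-bs the most abundant) were at 34650 ± 3950 CPM in naive and 22620 ± 5471 CPM in injured cartilage, with 5 of 9 fallen and 0 risen. Osteoblast and osteocyte markers were at 13190 ± 3927 and 51770 ± 3876 CPM, nearly all of it Col1a1, with 2 of 10 risen and 2 fallen. Synovial fibroblast markers were at 329.5 ± 46.2 and 817 ± 72.4 CPM, with 4 of 8 risen and Pdgfra the most abundant. Skeletal muscle markers were at 7911 ± 3155 and 4753 ± 1680 CPM with 0 of 10 called, and proliferation markers at 2596 ± 182 and 1975 ± 223 CPM with 0 of 8 called. Neutrophil and marrow myeloid markers had 2 of 10 fallen, B cell markers 1 of 6 fallen, osteoclast markers 1 of 7 risen, endothelial markers 3 of 6 risen and macrophage markers 0 of 8 called. Chondrocyte markers were at 5382 ± 1193 and 7788 ± 885 CPM, with 3 of 10 risen and 1 fallen. No marker of any list was at 0 in all libraries. Their part in the members' changes was not tested, and in these bulk samples fewer cells of a type and less RNA per cell cannot be told apart.

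Against the contralateral knee of the same day, fewer members passed. This comparison had 3 contralateral libraries in place of 6 naive ones, and its fit also held day 7 contralateral replicate 1. The 2 sets of counts are thus not on equal terms, and what set the difference was not tested. Of 850 tested, 10 rose (1.18%), against 9.33% of all genes tested, and 19 fell (2.24%), against 3.23% of all genes. The median log2 fold change was −0.20, against −0.05 for all genes. Without day 7 contralateral replicate 1 the counts were 13 and 21 and the median −0.25, against −0.01 for all genes, and the share that fell was then above that of all genes (2.37% against 1.99%). Without replicate 2 they were 14 and 14 and the median −0.16, and without replicate 3 they were 8 and 24 and the median −0.10, against −0.05 for all genes in both. Without injured replicate 1 they were 5 and 24, without replicate 2 they were 7 and 6, and without replicate 3 they were 7 and 7. In these other 5 settings both shares of members stayed under those of all genes, with 0.677% to 2.72% of members fallen and 1.28% to 4.85% of all genes.

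Cell type markers moved in this comparison as well. Of 9 erythroid markers 5 fell, as did 3 of 10 neutrophil and marrow myeloid markers and 1 each of the proliferation, macrophage and osteoblast and osteocyte markers, while 5 of 8 synovial fibroblast, 4 of 10 chondrocyte and 3 of 6 endothelial markers rose. No muscle, osteoclast or B cell marker was called. Contralateral replicate 1 held the highest sums of that group for erythroid markers (64750 CPM, lowest of the group 29360), osteoblast and osteocyte markers (53140 CPM, lowest 16430) and chondrocyte markers (12250 CPM, lowest 4202). Their part in the members' values was not tested.

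The 5 diverged copies that rose against naive were also called against the contralateral knee, with the same injured libraries in both comparisons. Without contralateral replicate 1 the call of Gm8307 was lost (log2 fold change 3.72) and the other 4 still passed. Gm6430 (chr1:97024681-97025928), an intermediate copy of the splicing regulator gene Hnrnpf, had 0.908, 0.634 and 0.324 CPM in injured and 0, 0.0892 and 0.0676 CPM in contralateral knees (log2 fold change 3.26 ± 0.93, edgeR adjusted p = 0.0209). Its naive libraries reached 0.449 CPM. Gm14567 (chrX:38969817-38969990), identical to Polr2k, an RNA polymerase subunit gene, had 0.681, 0.570 and 0.139 CPM in injured and 0, 0.0892 and 0.135 CPM in contralateral knees (2.29 ± 0.63, adjusted p = 0.0163). In naive libraries Gm14567 stood at 0.358 to 0.790 CPM, so its contralateral libraries and injured replicate 3 were the low ones. Gm48035 (chr12:22725142-22726590) had 0.863, 2.22 and 1.39 CPM in injured and 0.312, 0.490 and 0.676 CPM in contralateral knees (1.49 ± 0.37, adjusted p = 0.00911). The call of Gm6430 was lost with limma-voom, with DESeq2 and without day 7 contralateral replicate 1 or 3 or injured replicate 1. That of Gm14567 was lost with limma-voom and without injured replicate 1 or 2, that of Gm48035 without injured replicate 2 and when only the groups compared were fitted, and that of Gm14834 with DESeq2 and without contralateral or injured replicate 3.

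Among the members that fell, Gm10774 (chr2:126709354-126709557), a copy of the RNA polymerase subunit gene Polr2l, had 2 counts in injured against 34 in contralateral libraries, a ratio of 15.6 (3.99 to 134). Gm6501 (chr19:11121510-11122425), of Syncrip, an RNA-binding protein gene, had 3 against 32, a ratio of 9.77 (3.06 to 49.9). Gm49059 (chr14:85655204-85655897) had 0.182, 0.0634 and 0.139 CPM in injured and 0.312, 0.535 and 0.372 CPM in contralateral knees (log2 fold change −1.60 ± 0.54, edgeR adjusted p = 0.0457). Gm31544 (chr13:120046573-120047013), of the phosphatase gene Ctdsp1, had 0.318, 0.507 and 0.601 CPM in injured and 1.87, 1.11 and 0.879 CPM in contralateral knees (−1.38 ± 0.45, adjusted p = 0.0403). Gm4739, of Hmgb2, had 162, 183 and 113 CPM in injured and 288, 223 and 193 CPM in contralateral knees (−0.62 ± 0.19, adjusted p = 0.0318), and Hmgb2 itself was at −0.53 (adjusted p = 0.0185). Without any 1 of the 3 injured libraries or contralateral replicate 2, Gm10774 and Gm31544 were no longer called, as was so for Gm10774 with DESeq2 and for Gm31544 with limma-voom and without contralateral replicate 1. Gm6501 and Gm49059 were called by neither limma-voom nor DESeq2. Without contralateral replicate 1, Gm49059 and Gm4739 were not called either, with log2 fold changes of −1.69 and −0.43, and Gm36378 and Gm15549, named above for their fall against naive, were called lower (−3.05 and −2.07).

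At day 1 no member passed. For injured against naive knees edgeR called 0 of 836 members, against 0% of all genes, with 51 members (6.10%) at an unadjusted p under 0.05, against 4.54% of all genes, and a median log2 fold change of 0.07. For injured against contralateral knees of day 1 it called 0 of 836, against 0% of all genes, with 43 (5.14%) at an unadjusted p under 0.05, against 6.55% of all genes, and a median of 0.02. DESeq2 and limma-voom also called 0 in both. The LINE-1-like set had a median of 0.15 against naive and 0.14 against the contralateral knee at day 1, the opposite sign to its day 7 median.

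The contralateral knee at day 7 was set against naive to see how far the uninjured side moved. EdgeR called 0 of 850 members, against 0% of all genes, and the median log2 fold change was −0.28, against −0.03 for all genes, with 124 members (14.6%) at an unadjusted p under 0.05, against 15.1% of all genes. DESeq2 called 1 lower (0.118%, against 0.0611% of all genes) and limma-voom 0. Without day 7 contralateral replicate 1 edgeR also called 0, with a median of −0.21, against −0.02 for all genes. Diverged copies had a median of −0.40, or −0.29 without that library, and the LINE-1-like set −0.32, or −0.35 without it. Intermediate copies had −0.17, or −0.22 without it. Near-identical copies went the other way, at 0.11, or 0.08 without it. The summed level of the LINE-1-like set in the 3 contralateral libraries lay within or under the naive range.

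The injury effect, injured minus contralateral, was then compared between day 7 and day 1. Gm7334 was the only member with a higher effect at day 7 (0.12% of 850 members, against 3.53% of all genes), by 1.11 ± 0.28 on the log2 scale (edgeR adjusted p = 0.0348), a call lost under total-count scaling and without any 1 of 7 libraries. Its parent Btg3 was not called, at 0.66 ± 0.44 (edgeR adjusted p = 0.4945). Nor was Btg3 called against the contralateral knee at day 7 (0.92 ± 0.32, edgeR adjusted p = 0.0522). The copy's value depends on how reads shared with Btg3 were divided. At day 1 Gm7334 had 7.53, 8.996 and 6.88 CPM in injured and 8.09, 10.6 and 9.14 CPM in contralateral knees, and at day 7 12.6, 13.9 and 16.9 against 5.07, 8.20 and 10.2 CPM. Gm45038 (chr7:93523060-93526897), of the LINE-1-like set, was the only member with a lower effect (0.12%, against 0.245% of all genes), by −1.47 ± 0.31 (adjusted p = 0.0109). It had 4.04, 3.66 and 4.77 CPM in injured and 2.47, 3.28 and 2.10 CPM in contralateral knees at day 1, and 1.36, 1.90 and 2.08 against 3.66, 3.21 and 2.53 CPM at day 7. Injured libraries were thus the higher ones at day 1 and the lower ones at day 7, with no overlap on either day. Without day 7 contralateral replicate 1 both members were still called. The counts of such members were then 4 higher (0.451%, against 4.09% of all genes) and 3 lower (0.339%, against 0.321%). The share with a lower effect was thus above that of all genes, unlike in the main fit. The median was −0.23, against −0.03 for all genes, and −0.25 without that library, against 0.03.

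The count rule itself set who was described. Just inside it, 92 members had at least 10 counts in exactly 3 libraries, with a median highest count of 14 (range 10 to 184.3). Just outside, 112 pseudogenes had them in exactly 2 libraries, with a median highest count of 12.7 (range 10 to 1739). Only 3 members had all their libraries of at least 10 counts in 1 group, 2 in naive and 1 in day 1 contralateral libraries. A single such library in another group was enough to leave this number. Naive had 6 libraries with which to meet the rule and each other group 3, so it admits members high in naive more easily. The number of members with at least 10 counts was 329 to 676 in naive libraries and 418, 324 and 392 in injured knees at day 7. These numbers were not adjusted for depth.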

How the data were processed

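RNA of pooled cartilage caps was made into stranded total RNA libraries after ribosomal RNA removal, and the authors quantified trimmed paired-end reads with Kallisto on a mouse GRCm38 transcriptome. The deposited files hold estimated counts and TPM per transcript. Whether a strand setting was used is not given in the sources used here. The labels name a human build, but the transcript identifiers are mouse. The processing notes also name DESeq2. The authors left 1 library out, and it is not named in the sources used here.

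From these files, 135107 of 137436 transcripts (98.3%) were matched to GENCODE M21 without their version, estimated counts were summed per gene and rounded, and edgeR 4.0.16 (R 4.3.3) quasi-likelihood tests with TMM scaling and its default filter on low counts were fitted on all genes, with Benjamini-Hochberg adjustment. A call needed an FDR of at most 0.05 and 1.5-fold. Comparisons of injured knees with naive at either day and those of day 1 used the naive, day 1 and day 7 injured libraries. Day 7 contralateral libraries were left out of that fit because 1 of them stood apart in earlier work on these data. Comparisons with day 7 contralateral libraries used all 18. limma-voom (3.58.1) and DESeq2 (1.42.0) were alternatives. CPM are counts scaled to a common library size with TMM. TPM were summed per gene as deposited by the authors. Parents were the best blastn 2.17.0 match over at least 50% of a member. The scripts were tested on simulated data. Gene sequences were those of GENCODE M21.

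Members, marker lists, sequence classes and tests were chosen with earlier results of these data known. Named members were the 6 most abundant; at day 7 against naive, among calls without overlap, up to 8 in each direction with at least 50% of their 31-base words to themselves and up to 4 with less, by fold change; up to 4 in each direction against the contralateral knee; up to 5 for the change in effect; and the most abundant of each parent family. Results on 2 members that this rule names are not reported here. Others named were chosen after their values were seen. Depth was 16074800 to 41794000 estimated counts per library.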

Additional observations from a re-analysis of the deposited data

Results flagged for a closer look

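Among 53 sets of 6 naive values screened, 5 held a library far from the rest. The limit used gives about 1 in 20 by chance for normally distributed values, which counts near 0 are not. A set with 5 values of 0, as for Gm12918 and Gm2316, is always flagged, and a set at 0 throughout, as for Gm47893, never is. The chance rate for these sets is thus not known. Naive replicate 3 was the high one for 3 copies. Gm9194 had 0.933 CPM there, with the next library at 0.420. Gm12918 had 7.39 CPM there and 0 in the other 5. Rps13-ps2 had 3.73 CPM there, with the next library at 0.133. Gm10774 had 0.796 CPM in naive replicate 5, with the next at 0.214. Gm2316, on chromosome Y, had 0.0350 CPM in naive replicate 4, which is 1 count, and 0 in the other 5.

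The injury effect differed between day 7 and day 1 for 2 members by a test of the difference. It was higher at day 7 for Gm7334, by 1.11 on the log2 scale (edgeR adjusted p = 0.0348), and lower for Gm45038, by −1.47 (adjusted p = 0.0109).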

How the results depend on the processing

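For injured against naive knees at day 7, the main counts were 20 higher and 99 lower. At an FDR of 0.01 they were 6 (0.718%, against 9.03% of all genes) and 28 (3.35%, against 2.23%). limma-voom called 64 lower (7.66%, against 4.38%). Fitting all 18 libraries gave 14 higher (1.65%, against 9.76%) and 76 lower (8.94%, against 5.57%), with 850 members tested. Total-count scaling, chosen after seeing the data, called 7 higher and 258 lower, so that 97.4% of calls were lower against 83.2% with TMM. It moved the median of all genes to −0.35 and that of the members to −0.79, and the members lay 0.43 below all genes under both scalings. Leaving out 1 library gave 13 to 20 higher and 52 to 121 lower. The lowest values came without day 7 injured replicate 3 (5.88% lower, against 3.67% of all genes). Without replicate 2 of that group there were 63 lower (7.12%, against 4.07%). The 121 lower came without naive replicate 2 (14.5%, against 6.75%).

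Against the contralateral knee, the main counts of 10 and 19 became 4 (0.471%, against 7.3% of all genes) and 0 (against 1.18%) at an FDR of 0.01. They were 5 (1.23%, against 9.36%) and 1 (0.247%, against 1.54%) when only these groups were fitted, where 405 members were tested. Members with a mean of at least 10 counts gave 6 higher (1.07%, against 9.33%), and limma-voom 10 lower (1.18%, against 2.13%). Leaving out 1 library gave 5 to 14 higher, the lowest without day 7 injured replicate 1, and 6 to 24 lower, with 6 and 7 lower without day 7 injured replicates 2 and 3.

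For day 7 contralateral against naive, DESeq2 called 1 lower (0.118%, against 0.0611% of all genes). For the change in effect, an FDR of 0.01, total-count scaling and a transcript length offset gave 0 higher. Of all genes they called 1.6%, 1.19% and 2.43% higher. An FDR of 0.01 gave 0 lower, against 0.0141% of all genes, and DESeq2 3 (0.353%, against 0.753%). Leaving out 1 library gave 0 to 4 higher and 1 to 7 lower. The 4 higher (0.451%, against 4.09% of all genes) came without day 7 contralateral replicate 1. The 7 lower (0.794%, against 0.389%) came without day 7 injured replicate 1, above the share of all genes. The cause was not tested.

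Over 45 single-member results and 1131 alternative values, 0 turned direction with a call, 15 values of 7 members that were not called changed sign (7 of them under total-count scaling), 132 lost their call and 12 gained one. Of the lost calls, 76 came with a library left out. Those of Gm6501 and Gm49059 against the contralateral knee were lost in 17 of 26 alternatives each, that of Fth-ps2 in 12 of 25 and that of Gm7334 for the change in effect in 10 of 27. Most members were under 1 CPM, where counts limit precision. No paired analysis was possible because the labels tie no injured library to a contralateral one. The authors modelled the correlation of libraries from the same mouse pool, and no fit here did so.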
